A study of Homo sapiens with 6 samples.

Results

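The Fanconi, homologous recombination and checkpoint genes were a set of 48 protein-coding genes, taken by symbol from the 27420 genes of a deposited RNA-seq table. Expression was available for A673 and SKNMC, established Ewing sarcoma cell lines that carry an EWSR1-FLI1 fusion. THZ1, a covalent inhibitor of the transcriptional kinase CDK7, was given to each line for 6 h at 50 nM or at 200 nM, beside a DMSO vehicle control, so that the 2 lines and 3 treatments gave 6 libraries. Each condition was 1 library of cultured cells, so no difference within a line could be set against a replicate error or tested. A fit across both lines, chosen after the data were seen, takes the 2 lines as replicates and gives the adjusted p-values below. The comparisons addressed which of these genes lost transcript at the lower and at the higher dose, and whether both lines did so alike.

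Cells use these genes against DNA crosslinks, broken chromosomes and stalled replication forks. In the Fanconi pathway, a multi-subunit ubiquitin ligase called the core complex works with the conjugating enzyme UBE2T to place ubiquitin on FANCD2 and FANCI, which starts the unhooking of a crosslink. The break that follows is cut back by the MRE11-RAD50-NBN complex, prepared by BRCA1, PALB2 and BRCA2 and joined by strand exchange, after which nucleases and a helicase take the joined chromosomes apart. ATM and ATR are the kinases that signal breaks and stalled forks to CHEK1 and CHEK2, and ring-finger ubiquitin ligases mark the chromatin around a break.

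Values are FPKM, in which fragments are divided by gene length and by the total mapped in that library, so a value is a share of a library and not an amount per cell. In these bulk samples, fewer cells of a kind and less RNA per cell cannot be told apart. Changes are given as log2((FPKM + 1) with THZ1 / (FPKM + 1) with DMSO), a scale that understates the change of low genes, and a gene is called decreased or increased where this value passed 2-fold. Active genes had more than 1 FPKM in the DMSO library of the line, and all 48 genes were active in both lines. The number of reads per library is unknown. The summed FPKM of the 82 ribosomal protein genes made up 13.6% of the FPKM total of the DMSO library in A673, then 16.1% and 17.7% as the dose rose. The same share in SKNMC was 19%, 24.7% and 29.7%. Its part in the changes was not tested, and counts rescaled by these genes are given as well. All 8 Ewing sarcoma markers checked were above 1 FPKM in all 6 libraries, with a summed level between 719 and 1624 FPKM. Of 8 listed markers of other cell types, 6 stayed below 1 FPKM in all 6 libraries, and of these CD3E, a T-cell gene, was listed at 0. The exceptions were KRT18, at 73.8 to 143 FPKM in all 6, and PTPRC, a leukocyte gene, at 7.90 to 13.1 FPKM in SKNMC but at most 0.029 FPKM in A673. The summed level of these markers ran from 87.8 to 154 FPKM, and their part in the results was not tested.

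With 50 nM THZ1, 22 of the 48 genes (45.8%) decreased at least 2-fold in A673, where 15.9% of 11077 active genes did so. In SKNMC at 50 nM, 19 genes (39.6%) decreased, beside 15.8% of 11896 active genes. At 200 nM, 22 genes (45.8%) decreased in A673, beside 25.3% of active genes, and 20 (41.7%) decreased in SKNMC, beside 27.3%. None of the 48 genes increased 2-fold in any comparison with DMSO, and few active genes did so, 0.343% in A673 and 0.471% in SKNMC at 50 nM and 0.126% and 0.462% at 200 nM. As deposited, the distance between the 48 genes and all active genes was thus wider at 50 nM than at 200 nM, while the decreased share of all active genes grew with dose and that of the 48 genes hardly moved.

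The medians ran in parallel. In A673 the median change of the 48 genes was -0.89 at 50 nM (95% order-statistic interval across genes, -1.19 to -0.46) and -0.93 at 200 nM (-1.18 to -0.55), and that of all active genes was -0.27 and -0.40. In SKNMC the medians were -0.76 (-1.07 to -0.38) and -0.83 (-1.10 to -0.61), beside -0.32 and -0.55 for all active genes. Such intervals treat genes as the units, so they say nothing of the spread between cultures. Genes of a like DMSO level (those within the middle range of the 48, 7.12 to 18.3 FPKM in A673 and 7.41 to 19.6 FPKM in SKNMC) decreased more often than active genes at large. In A673 their share was 22.5% at the lower and 36.7% at the higher dose, and SKNMC had 20.3% and 36.4%. For the like-level genes of A673 the median change was -0.41 at the lower and -0.67 at the higher dose, and for those of SKNMC it was -0.38 and -0.74. Subtracted from the median of the 48 genes, these left -0.47 and -0.26 for A673, whereas SKNMC had -0.38 and -0.087, so at 200 nM in SKNMC the 48 genes stood close to other genes of their level. The course with dose depended on the scale of a library. When the 75th percentile of the active genes served as the scale, the decreased genes went from 16 to 11 of 48 between the lower and the higher dose in A673 (11% and 17.3% of active genes), and from 13 to 9 in SKNMC (10.3% and 13.4%). With the ribosomal protein genes as the scale, they went from 25 to 30 in A673 (21.3% and 35.2% of active genes), and from 25 to 35 in SKNMC (26.5% and 49.7%).

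**Figure D1:**
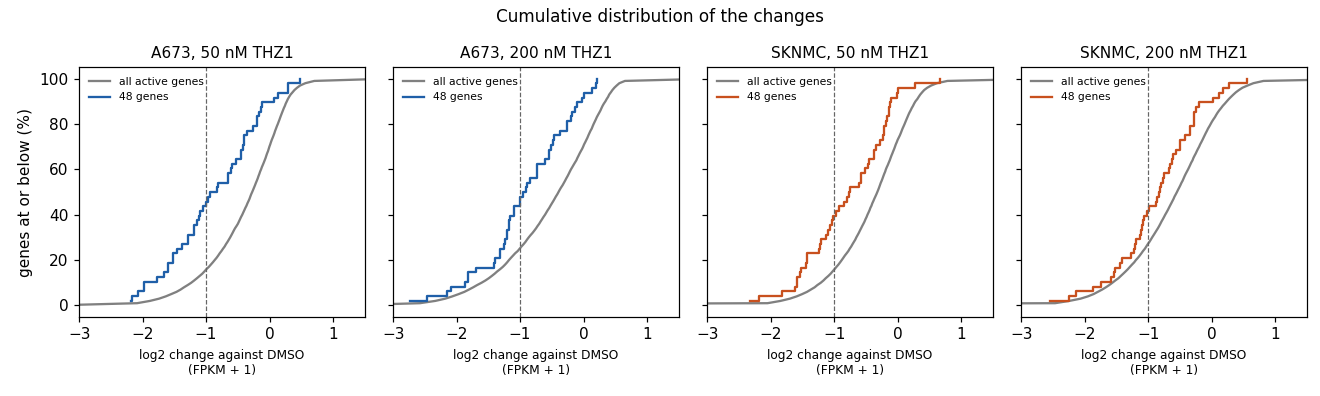
Cumulative share of genes (y axis, percent) at or below a log2 change against DMSO (x axis, FPKM + 1), for the 48 genes (coloured steps) and all active genes (grey line), with a panel for each line and dose and a dashed line at a 2-fold decrease. The coloured curve lies left of the grey curve over most of each panel, and at the dashed line the 48 genes stand at 45.8% and 45.8% in A673 and at 39.6% and 41.7% in SKNMC.

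Across the lines, the question was which genes moved alike in both. In a limma fit to log2(FPKM + 1) with line as a block, over the 10574 genes active in both lines and with 2 residual degrees of freedom for each gene, 30 of the 48 genes were lower at 50 nM than with DMSO at a Benjamini-Hochberg adjusted p under 0.05, beside 38.5% of all genes fitted. A single gene was higher, RNF168, at 0.57 (SE 0.17, limma adjusted p = 0.0187), beside 5.12%. At 200 nM, 35 of the 48 were lower, beside 52.7%, and limma called 0 higher, also at an unadjusted p under 0.05, beside 6.08% at the adjusted threshold. ATRIP, at -2.25 (SE 0.17, limma adjusted p = 9.09e-06), was lowest at 50 nM, and PALB2, at -2.64 (SE 0.18, limma adjusted p = 1.58e-06), was lowest at 200 nM. From 50 nM to 200 nM, FANCE, BARD1, PALB2, RNF8 and RNF168 were lower (5 of 48, beside 23.2%). BRCA1, ATM and MDC1 were higher (3 of 48, beside 3.37%), with ATM close to the threshold (limma adjusted p = 0.0466). These counts moved with the library left out, for the 48 genes and for all genes fitted. RNF168 at 50 nM did not keep its call in every such fit. Each of these fits leaves 1 library in a treatment group, so their counts are not given here. On the scale of the 75th percentile, 24 of the 48 were lower and 2 higher at 50 nM, where 2655 of all genes were lower and 1875 higher in place of 4073 and 541. At 200 nM on that scale, 25 of the 48 were lower and 4 higher, beside 3377 and 2611 of all genes in place of 5573 and 643. With the ribosomal protein genes as the scale, 39 were lower and 0 higher at 50 nM, beside 6086 and 105 of all genes. RNF168 was thus not called there. At 200 nM on the ribosomal scale, 45 were lower and 0 higher, beside 8189 and 42. From 50 nM to 200 nM, 4 were lower and 7 higher on the scale of the 75th percentile, beside 1779 and 1722. The ribosomal scale gave 10 lower and 2 higher for that step, beside 3070 and 99. In limma each gene's variance is drawn toward a trend over all genes fitted, with 9.48 prior beside 2 residual degrees of freedom. The p-values thus rest more on that pooled trend than on a gene's own spread between the lines. Without either DMSO library or either 50 nM library the prior was infinite, and the trend alone set the variance. Each line has 1 library per condition, so the p-values do not measure the spread between repeat cultures.

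Over the 4 THZ1 libraries, 11 genes were decreased in every one. These were FANCE, FANCF, PALB2, XRCC2, RAD52, BLM, SLX4, MUS81, EME1, ATRIP and CLSPN, which come from 5 of the 9 roles. Of 10574 genes active in both lines, 8.7% were decreased in all 4. Another 16 of the 48 genes were decreased in none, namely FANCA, FANCC, FANCG, FANCD2, FANCI, BRIP1, RAD51B, MRE11A, NBN, RBBP8, ATM, ATR, CHEK1, CHEK2, HUS1 and TP53BP1, where 62.7% of genes active in both lines were decreased in none. The remaining genes were decreased in 3 libraries (4 genes), in 2 (10 genes) or in 1 (7 genes). Under all of the 4 scalings tried (as deposited, a common sum, the 75th percentile and the ribosomal protein genes), FANCF, PALB2, BLM and ATRIP were decreased in every THZ1 library, and FANCA, FANCC, FANCG, FANCD2, FANCI, BRIP1, RAD51B and ATM were decreased in none. In hg19 the former lie apart, with FANCF at chr11:22644078-22647387, PALB2 at chr16:23614487-23652631, BLM at chr15:91260557-91358859 and ATRIP at chr3:48488113-48507115.

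**Figure D2:**
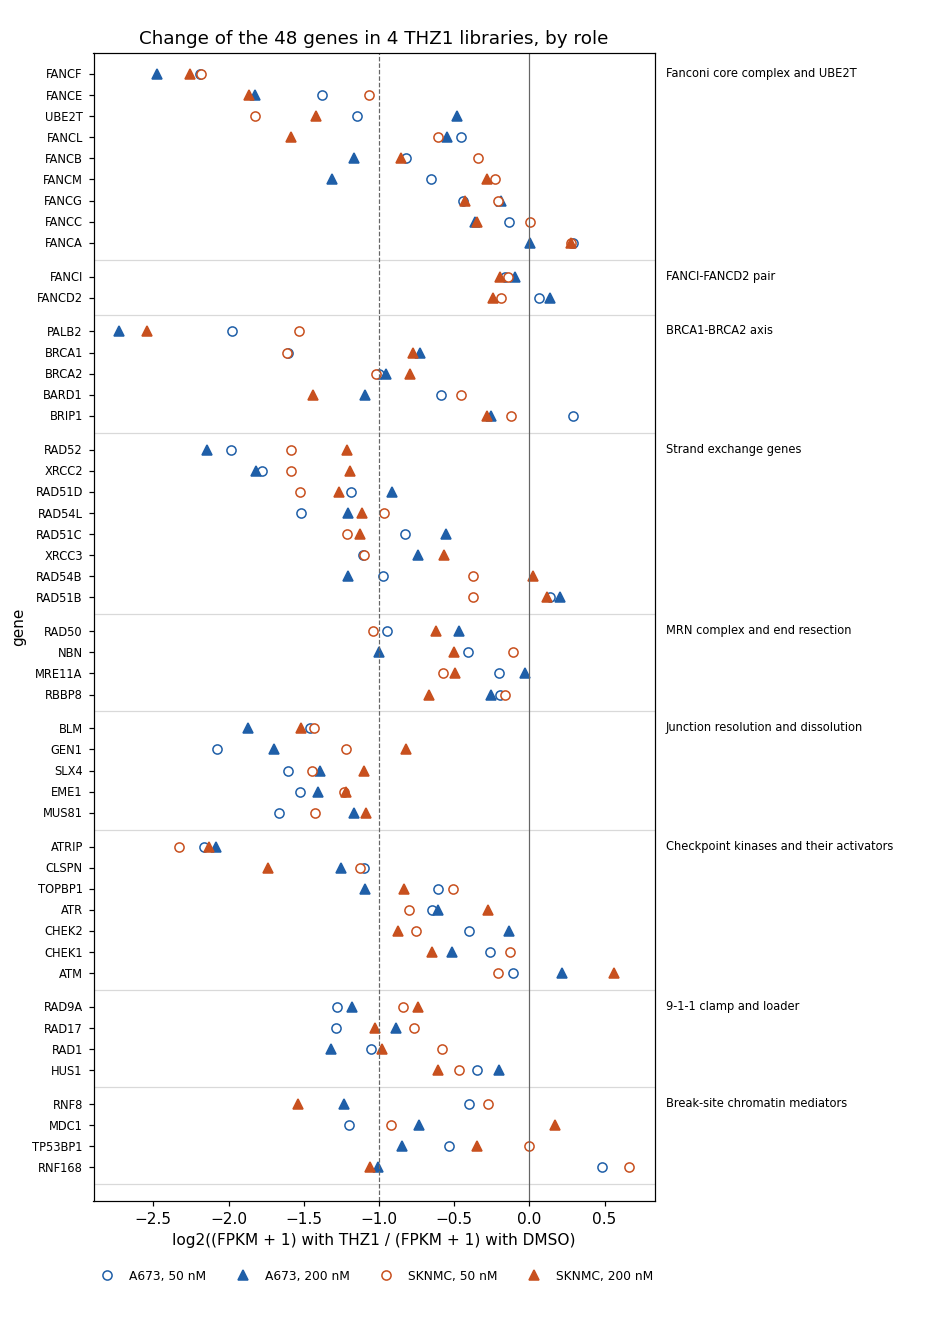
Log2 change against DMSO (x axis, FPKM + 1) of each of the 48 genes (y axis, ordered by role and then by mean change), with open circles for 50 nM, filled triangles for 200 nM, blue for A673 and orange for SKNMC, 1 library per point, and a dashed line at a 2-fold decrease. FANCF, PALB2 and ATRIP have the lowest mean changes, with points between -1.53 and -2.73. All 5 genes of the junction group lie left of the dashed line in A673.

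To show what the start sites of the most and the least lowered genes look like, the 250 bases before the start of 4 genes are given, 5′ to 3′ on the gene's own strand, from RefSeq (GRCh38.p14). FANCF (chr11:22625824-22626073, minus strand) and PALB2 (chr16:23641311-23641560, minus strand) decreased in every THZ1 library, whereas FANCA (chr16:89816648-89816897, minus strand) and ATM (chr11:108222817-108223066, plus strand) decreased in none. Capitals mark matches, on either strand, to the CCAAT box, the Sp1 box GGGCGG, the ETS box CCGGAAG and the cell cycle homology region TTTGAA.
FANCF: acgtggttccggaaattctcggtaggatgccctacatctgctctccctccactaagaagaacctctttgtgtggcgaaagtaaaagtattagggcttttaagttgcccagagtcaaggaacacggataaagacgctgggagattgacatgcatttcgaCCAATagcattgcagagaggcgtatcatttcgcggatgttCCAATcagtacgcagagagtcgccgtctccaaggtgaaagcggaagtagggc
PALB2: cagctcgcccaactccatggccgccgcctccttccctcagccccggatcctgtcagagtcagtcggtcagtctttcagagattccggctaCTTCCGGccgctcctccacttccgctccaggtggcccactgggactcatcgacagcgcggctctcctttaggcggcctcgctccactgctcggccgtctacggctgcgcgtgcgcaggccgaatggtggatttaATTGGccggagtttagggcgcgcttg
FANCA: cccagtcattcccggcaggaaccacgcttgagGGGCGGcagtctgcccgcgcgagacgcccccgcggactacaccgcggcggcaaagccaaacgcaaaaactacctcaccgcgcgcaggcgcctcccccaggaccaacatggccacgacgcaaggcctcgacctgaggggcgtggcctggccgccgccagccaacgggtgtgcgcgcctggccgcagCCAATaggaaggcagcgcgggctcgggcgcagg
ATM: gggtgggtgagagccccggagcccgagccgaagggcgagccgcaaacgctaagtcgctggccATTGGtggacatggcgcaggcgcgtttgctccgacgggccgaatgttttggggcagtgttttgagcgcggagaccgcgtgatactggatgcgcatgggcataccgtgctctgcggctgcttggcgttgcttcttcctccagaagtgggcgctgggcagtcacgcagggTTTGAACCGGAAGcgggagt
All 4 windows hold a CCAAT box, FANCF holds a pair of them, PALB2 and ATM add an ETS box, and FANCA adds a GGGCGG. Promoters were found for 44 of the 48 genes, and 11 motifs were searched on both strands. CCAAT was present in 20 of the 44 (45.5%), in 33% of all 27305 promoters and in 35.8% of 8069 promoters of active genes. CCGGAAG, the core that ETS factors such as FLI1 can read, was in 14 (31.8%), in 8.82% of all promoters and in 17.9% of those of active genes. GGGCGG was in 32 (72.7%), close to the 69.3% of active genes and above the 42.3% of all promoters. TATAAA and the ETS pair GGAAGGAA were in 0 of the 44, and 4.62% and 2.78% of active-gene promoters hold them (11.1% and 2.99% of all). The cell cycle homology letters TTTGAA were in 5 (11.4%; 13.6% of all and 8.22% of active-gene promoters). The E-box CACGTG and the NRF1 site GCGCATGC were each in 2 (4.55%), beside 9.42% and 5.42% of active-gene promoters and 6.49% and 2.81% of all. The E2F sites TTTGGCGC and, as a second form, TTTCGCGC were in 0 and 1, beside 0.905% and 0.855% of active-gene promoters and 0.553% and 0.469% of all. The CRE palindrome TGACGTCA was in 1 (2.27%), beside 3.17% and 1.77%. Matches of different motifs may overlap. When the 44 genes were divided at the middle of their mean change into 22 lower and 22 higher genes, CCAAT was in 9 and 11 of them, CCGGAAG in 7 and 7, and median GC content was 66.4% and 63.2%. A match is a description of the sequence and not a bound site.

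Of the 9 genes of the core complex and UBE2T, 3 decreased at 50 nM in each line and 4 at 200 nM in each line. For this and each role below, the shares of active genes decreased were 15.9% in A673 and 15.8% in SKNMC at 50 nM. At 200 nM they were 25.3% and 27.3%. The roles hold few genes, and differences between them were not tested. FANCF, an adaptor subunit that bridges the complex, had the lowest mean change of all 48 genes and went through DMSO, 50 nM and 200 nM at 8.45, 1.08 and 0.702 FPKM in A673 and 14.3, 2.37 and 2.21 FPKM in SKNMC. Its changes were -2.19 and -2.47 in A673 and -2.18 and -2.25 in SKNMC, so most of the loss was already present at the lower dose. FANCE, the subunit that contacts FANCD2, stood at 9.01, 2.84 and 1.83 FPKM in A673 and 11.1, 4.78 and 2.34 FPKM in SKNMC, and it was lower at 200 nM than at 50 nM in both lines. UBE2T, the conjugating enzyme, followed another course, with 35.7, 15.5 and 25.3 FPKM in A673 and 50.3, 13.5 and 18.2 FPKM in SKNMC. It was lowest at 50 nM in both lines and stood higher at 200 nM, where it was decreased in SKNMC but not in A673. FANCA, the most abundant of the group by mean FPKM, was at 39, 47.9 and 39.1 FPKM in A673 and 19.6, 23.9 and 24 FPKM in SKNMC, above DMSO in all 4 THZ1 libraries as deposited, though with the ribosomal protein genes as the scale it was below DMSO in 3 of 4 and with a common sum it was just below in A673 at 200 nM. FANCB at 35.8% of DMSO and FANCM at 30.4% decreased in A673 at 200 nM, and FANCL, the catalytic ubiquitin ligase, decreased in SKNMC at 200 nM, to 30.4%. FANCC and FANCG stayed between 72.6% and 100.2% of DMSO.

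The ubiquitinated pair FANCI and FANCD2, downstream of that ligase, had no decreased gene. FANCI was at 54.1, 48.3 and 50.5 FPKM in A673 and 54.6, 49.5 and 47.6 FPKM in SKNMC, and FANCD2 at 14.7, 15.5 and 16.4 FPKM in A673 and 11.1, 9.63 and 9.25 FPKM in SKNMC. FANCI stayed between 87.2% and 93.3% of DMSO, while FANCD2 was above DMSO in A673 and below it in SKNMC at both doses as deposited. With the 75th percentile as the scale FANCD2 was above DMSO in all 4 libraries, and with the ribosomal protein genes it was below DMSO in all 4.

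In the BRCA1-BRCA2 axis, 3 of 5 genes decreased at 50 nM in each line and 2 of 5 at 200 nM. PALB2, which joins BRCA1 to BRCA2, was at 9.35, 1.63 and 0.562 FPKM in A673 and 11, 3.14 and 1.05 FPKM in SKNMC. Its changes of -1.98 and -2.73 in A673 and -1.53 and -2.54 in SKNMC were the lowest of the 48 genes at 200 nM in both lines, and the loss deepened with dose. BRCA1, the ligase that selects recombination, was at 7.0, 1.63 and 3.82 FPKM in A673 and 9.66, 2.49 and 5.23 FPKM in SKNMC. It was decreased at 50 nM in both lines and stood higher at 200 nM than at 50 nM in both, a step of 0.87 in A673 and 0.84 in SKNMC on the log2 scale that kept its sign under each scaling tried. Its partner BARD1 moved the other way with dose, with 6.12, 3.74 and 2.34 FPKM in A673 and 7.55, 5.24 and 2.16 FPKM in SKNMC, and was decreased at 200 nM alone. BRCA2, a mediator of strand exchange, was at 5.19, 2.09 and 2.2 FPKM in A673 and 3.37, 1.15 and 1.51 FPKM in SKNMC, close to the 2-fold threshold in all 4 THZ1 libraries. BRIP1, a helicase that binds BRCA1 and the most abundant of the group by mean FPKM, was at 8.79, 10.9 and 7.19 FPKM in A673 and 6.72, 6.08 and 5.36 FPKM in SKNMC and was not decreased.

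Of the 8 strand exchange genes, 5 decreased at 50 nM in each line, and 4 in A673 and 5 in SKNMC decreased at 200 nM. RAD52, which anneals single strands, was at 4.61, 0.418 and 0.268 FPKM in A673 and 4.45, 0.816 and 1.35 FPKM in SKNMC. XRCC2 was at 9.77, 2.14 and 2.06 FPKM in A673 and 10.1, 2.71 and 3.88 FPKM in SKNMC, and both were decreased in every THZ1 library. RAD51D, which pairs with XRCC2, was at 3.26, 0.872 and 1.26 FPKM in A673 and 4.57, 0.931 and 1.31 FPKM in SKNMC, decreased in all but A673 at 200 nM. The motor protein RAD54L, which remodels DNA during strand exchange, was at 16.5, 5.09 and 6.58 FPKM in A673 and 14.3, 6.81 and 6.08 FPKM in SKNMC. In SKNMC at 50 nM it was just short of the call on the log2 scale (-0.97), though at 47.7% of DMSO in plain FPKM. XRCC3 was at 29.1, 13 and 17 FPKM in A673 and 20.6, 9.08 and 13.6 FPKM in SKNMC, decreased at 50 nM in both lines and in neither at 200 nM. RAD51C, the most abundant of the group, was at 28.2, 15.5 and 18.9 FPKM in A673 and 28.5, 11.7 and 12.5 FPKM in SKNMC, decreased in SKNMC alone. RAD51B, which spans more of the genome than any other of the 48 genes, was at 4.97, 5.57 and 5.87 FPKM in A673 and 5.19, 3.77 and 5.7 FPKM in SKNMC, with changes of 0.14 and 0.20 in A673 and -0.38 and 0.11 in SKNMC, whose positive values turn negative with the ribosomal protein genes as the scale. Relative to DMSO, RAD54B stood at 47.2% and 39% in A673 and 75.2% and 102% in SKNMC (lower and higher dose). Both RAD54 genes were thus decreased at 200 nM in A673, whereas in SKNMC at that dose RAD54B was level with DMSO.

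The MRN complex and the resection factor RBBP8 (CtIP), which expose single strands at a break, had a single call over the 4 comparisons with DMSO. RBBP8, the most abundant of the group, was at 24.7, 21.5 and 20.5 FPKM in A673 and 19.7, 17.5 and 12 FPKM in SKNMC, and relative to DMSO the nuclease MRE11A stood at 85.9% and 98% in A673 and 65.6% and 69.5% in SKNMC. NBN, which recruits ATM, reached 47.2% of DMSO in A673 at 200 nM, which was -0.998 on the log2 scale and so just short of the call. That call was RAD50 in SKNMC at 50 nM, at 45.9% of DMSO. In A673 at 50 nM RAD50 stood at 49.6% of DMSO, which was -0.94 on the log2 scale and also short of the call. At 200 nM it stood at 70.8% in A673 and 63.2% in SKNMC.

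Junction resolution and dissolution showed the most uniform loss, with all 5 genes decreased at 50 nM in both lines, all 5 in A673 at 200 nM and 4 in SKNMC at 200 nM. Its median changes were -1.61 and -1.40 in A673 and -1.43 and -1.10 in SKNMC. BLM, the helicase of the dissolving complex, was at 14.2, 4.55 and 3.15 FPKM in A673 and 11.1, 3.47 and 3.22 FPKM in SKNMC. SLX4, the scaffold that holds several nucleases, was the least abundant of the 48 genes in both DMSO libraries, with 2.58, 0.176 and 0.367 FPKM in A673 and 2.67, 0.348 and 0.715 FPKM in SKNMC. Both were decreased throughout, and the values of SLX4 lay under 1 FPKM in each THZ1 library, where single fragments weigh more. MUS81, the most abundant of the group, was at 21.7, 6.15 and 9.12 FPKM in A673 and 24.8, 8.59 and 11.1 FPKM in SKNMC. EME1, its partner in the same nuclease, was at 8.47, 2.29 and 2.58 FPKM in A673 and 8.38, 2.99 and 3.04 FPKM in SKNMC. The partners of this nuclease were both decreased in every THZ1 library. GEN1, a separate resolvase, was at 6.62, 0.806 and 1.35 FPKM in A673 and 5.08, 1.61 and 2.45 FPKM in SKNMC, with the deeper loss in A673. With the 75th percentile as the scale all 5 genes were still decreased at 50 nM in both lines, but MUS81 was no longer decreased at 200 nM in A673, and in SKNMC at 200 nM only BLM was.

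Among 7 checkpoint kinases and activators, 2 decreased at 50 nM in each line, and 3 in A673 and 2 in SKNMC decreased at 200 nM. The last count, 2 of 7, was near the 27.3% of active genes in SKNMC at 200 nM. ATRIP, the partner through which ATR finds single-stranded DNA, was at 4.78, 0.29 and 0.36 FPKM in A673 and 6.53, 0.494 and 0.718 FPKM in SKNMC. It fell to between 6.08% and 11% of DMSO in the 4 THZ1 libraries. TREX1, which overlaps ATRIP on the same strand, was at 9.64, 4.12 and 3.04 FPKM in A673 and at 2.12, 1.09 and 0.645 FPKM in SKNMC, and how reads shared by the pair were assigned is not stated. CLSPN, which carries the signal of ATR to CHEK1, was at 17.6, 7.68 and 6.82 FPKM in A673 and 14.3, 6.03 and 3.6 FPKM in SKNMC, decreased in every THZ1 library. ATR itself was not decreased and, relative to DMSO, stood at 58.3% and 60.5% in A673 and 53.1% and 80.8% in SKNMC. CHEK1, the target kinase and the most abundant gene of the 48 in A673 with DMSO, was at 64.7, 53.8 and 45.1 FPKM in A673 and 23.8, 21.6 and 14.8 FPKM in SKNMC. CHEK1 kept at least 62.2% of its DMSO level in each THZ1 library. TOPBP1, an activator of ATR, decreased in A673 at 200 nM alone, to 45.2% of DMSO, and CHEK2 stood between 52.7% and 90.4%. ATM, the kinase that answers breaks, was at 7.16, 6.55 and 8.47 FPKM in A673 and 5.21, 4.38 and 8.16 FPKM in SKNMC, below DMSO at 50 nM and above it at 200 nM in both lines as deposited. Its change at 200 nM was 0.21 in A673 and 0.56 in SKNMC, and the former turns to -0.11 with the ribosomal protein genes as the scale.

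The clamp of RAD9A, RAD1 and HUS1, with its loader RAD17, surrounds DNA at a stalled fork and brings TOPBP1 to ATR. Of these 4 genes, 3 decreased in A673 and 0 in SKNMC at 50 nM, beside 15.9% and 15.8% of active genes. At 200 nM, 2 and 1 did so, beside 25.3% and 27.3%. RAD17 was at 12.5, 4.55 and 6.3 FPKM in A673 and 27.9, 16 and 13.2 FPKM in SKNMC, and RAD1, the most abundant of the group by mean FPKM, at 22.8, 10.5 and 8.52 FPKM in A673 and 25.3, 16.5 and 12.3 FPKM in SKNMC. Relative to DMSO, HUS1 stayed between 62.6% and 86.1%, and RAD9A stood at 35.4% and 38.7% in A673 and 52.9% and 57.1% in SKNMC. The difference between the lines in this group was not tested.

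Of the 4 break-site chromatin genes, 1 decreased in A673 at 50 nM, none in SKNMC at 50 nM, and 2 in each line at 200 nM. RNF168, which ubiquitinates histone H2A near breaks, was at 8.11, 11.7 and 3.53 FPKM in A673 and 8.99, 14.8 and 3.78 FPKM in SKNMC. It was thus above DMSO at 50 nM and decreased at 200 nM in both lines, and the signs of both changes held under each scaling tried. Its values at 200 nM with the 75th percentile as the scale were -0.71 in A673 and -0.59 in SKNMC, short of 2-fold. RNF8, the ligase that acts before it, was at 16.6, 12.3 and 6.48 FPKM in A673 and 17.8, 14.5 and 5.47 FPKM in SKNMC, lower at each dose than at the one before. MDC1, the scaffold that RNF8 binds, was named after its values were seen, and it was at 11.4, 4.42 and 6.48 FPKM in A673 and 11.4, 5.52 and 12.9 FPKM in SKNMC. MDC1 was lowest at 50 nM in both lines, and in SKNMC at 200 nM it was above DMSO as deposited but below it (-0.35) with the ribosomal protein genes as the scale. TP53BP1, which limits resection, was not decreased and, relative to DMSO, stood at 67% and 52.6% in A673 and 99.8% and 76.8% in SKNMC.

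The step from the lower to the higher dose went in both directions, as it did for all active genes. From 50 nM to 200 nM, 23 of the 48 genes were lower in A673, beside 51.7% of active genes, and 26 were lower in SKNMC, beside 62%. Among them 19 were lower in both lines, 18 were higher in both and 11 moved in opposite directions, while 45.7% of genes active in both lines were lower in both and 30% were higher in both. The 18 higher at 200 nM in both lines included BRCA1, UBE2T, MDC1, ATM, ATR, ATRIP, SLX4, MUS81, EME1 and GEN1. Of these, ATRIP, SLX4, MUS81 and EME1 were still decreased against DMSO, and ATRIP and SLX4 lay under 1 FPKM in each THZ1 library. With the ribosomal protein genes as the scale, the step was -0.068 for ATR in A673 and -0.12 for EME1 in SKNMC. A step of at least 2-fold down occurred for RNF168 in A673 (7.44% of active genes) and for PALB2, RNF8 and RNF168 in SKNMC (8.39%). A step of at least 2-fold up occurred for none of the 48 genes in A673 (0.117% of active genes) and for MDC1 in SKNMC (0.37%). With the 75th percentile as the scale, 15 rather than 26 genes were lower at 200 nM than at 50 nM in SKNMC, beside 42.9% of active genes. The ribosomal scale gave 29 lower in A673 and 31 in SKNMC, beside 64.5% and 76.4%.

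**Figure D3:**
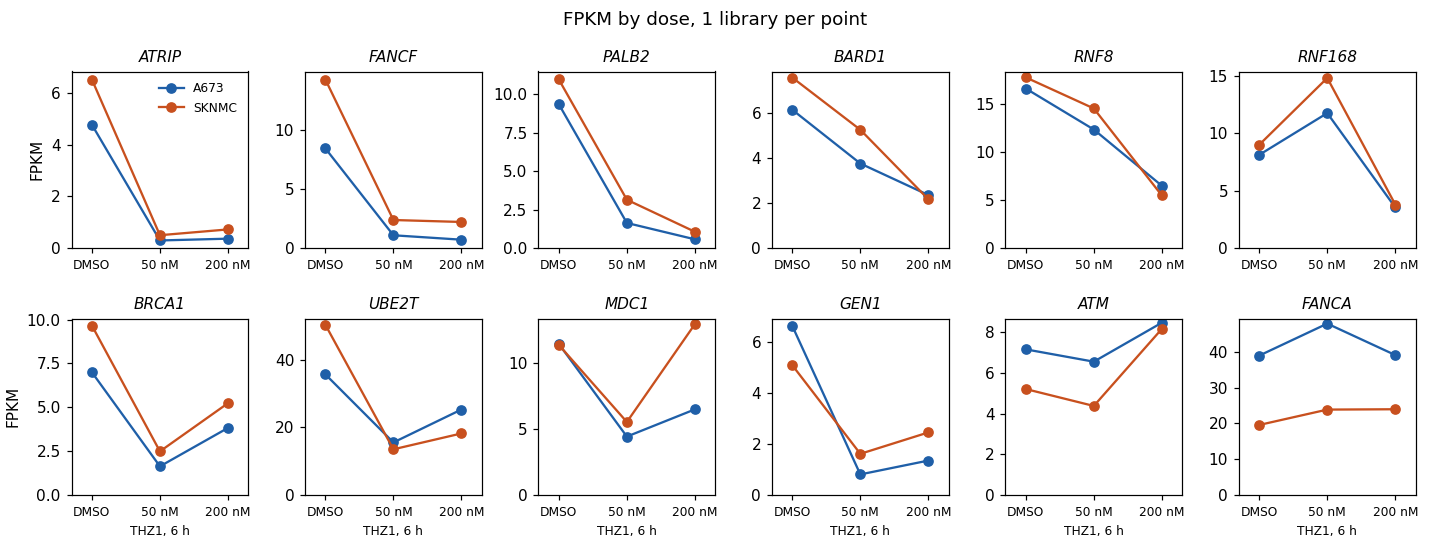
FPKM (y axis, from 0) of 12 genes with DMSO, 50 nM and 200 nM THZ1 (x axis) in A673 (blue) and SKNMC (orange), 1 library per point with no error bars because each condition is 1 library. ATRIP and FANCF are already near their lowest values at 50 nM, PALB2, BARD1 and RNF8 are lowest at 200 nM, RNF168 peaks at 50 nM (11.7 and 14.8 FPKM), and BRCA1, UBE2T, MDC1 and GEN1 are lowest at 50 nM.

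Both lines ordered the genes in a like way. At 50 nM, 17 genes decreased in both lines, 5 in A673 alone and 2 in SKNMC alone, where the shares of the 10574 genes were 11.4%, 4.69% and 4.7%. At 200 nM, 15 decreased in both, 7 in A673 alone (FANCB, FANCM, RAD54B, GEN1, TOPBP1, RAD9A and RAD1) and 5 in SKNMC alone (FANCL, UBE2T, RAD51C, RAD51D and RAD17), where the shares were 20.4%, 5.22% and 8.23%. Some of these calls in a single line turn on the pseudocount. In plain FPKM at 200 nM, RAD51D was at 38.8% of DMSO in A673. FANCB, GEN1 and RAD1 were at 48.4%, 48.2% and 48.7% in SKNMC. The other genes named stayed short of 2-fold in the other line in plain FPKM too. Across the 48 genes the changes in A673 and SKNMC had a Pearson r of 0.89 and a Spearman rho of 0.88 at 50 nM, and 0.74 and 0.68 at 200 nM. For the 10574 genes active in both lines, r was 0.84 at 50 nM and 0.82 at 200 nM. These values describe genes within single libraries, each change sharing its DMSO library with the other changes of that line.

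**Figure D4:**
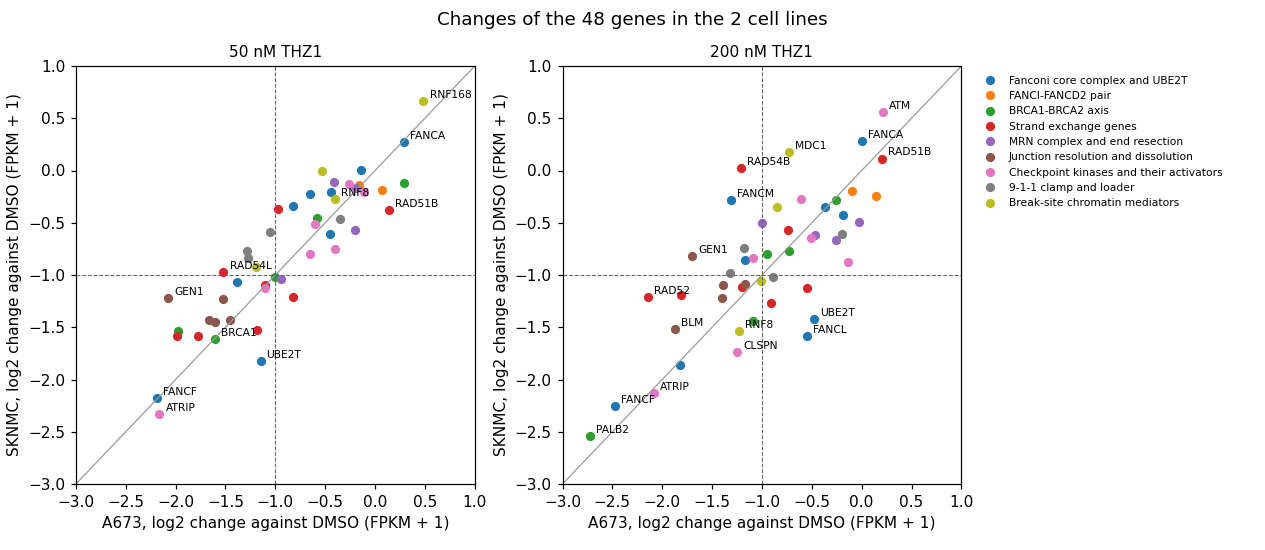
Log2 change against DMSO (FPKM + 1) in A673 (x axis) and SKNMC (y axis) of the 48 genes at 50 nM (left) and 200 nM (right), coloured by role, with the diagonal in grey and dashed lines at a 2-fold decrease. Points lie closer to the diagonal at 50 nM (r = 0.89) than at 200 nM (r = 0.74), where MDC1, RAD54B and FANCM sit above it and UBE2T and FANCL below it.

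Without THZ1 the lines were much alike in these genes. The median DMSO level was 12.8 FPKM in A673 and 11.7 FPKM in SKNMC, near the 14.1 and 13.5 FPKM of all active genes. Of the 48 genes, 41 lay within 1.5-fold between the lines, beside 55.8% of 12399 genes active in either. That set also holds genes active in a single line, whereas all 48 were active in both, so the shares are not of like sets. CHEK1 was the only one of the 48 at least 2-fold higher in A673 (64.7 against 23.8 FPKM; 8.42% of genes were so), and RAD17 the only one higher in SKNMC (27.9 against 12.5 FPKM; 15% of genes). STT3A, which overlaps CHEK1 on the same strand, was also higher in A673 with DMSO, at 171.5 against 70.8 FPKM. How reads shared by CHEK1 and STT3A were assigned is not stated, and their part in the difference was not tested.

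The change also went with gene span. Across the 48 genes, the Spearman rho between the log2 change and the log10 span in hg19 was 0.57 and 0.48 in A673 (lower and higher dose) and 0.47 and 0.47 in SKNMC, beside 0.18, -0.014, 0.18 and 0.043 for all active genes. Of the 12 shortest genes (3.31 to 21.7 kb), A673 had 11 decreased at the lower and 7 at the higher dose, and SKNMC had 8 and 7. Of the 12 longest (84.2 to 910.4 kb), A673 had 2 and 2 decreased, and SKNMC had 3 and 1. The shares of all active genes, of any span, were 15.9% and 25.3% in A673 and 15.8% and 27.3% in SKNMC. A share for active genes of a like span was not computed. FANCF, the shortest at 3.31 kb, was among the lowest and RAD51B, the longest at 910.4 kb, among the highest. The genes share their libraries, so this is a description, and RAD52 at 78 kb and BLM at 98.3 kb were among the genes decreased in every THZ1 library.

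**Figure D5:**
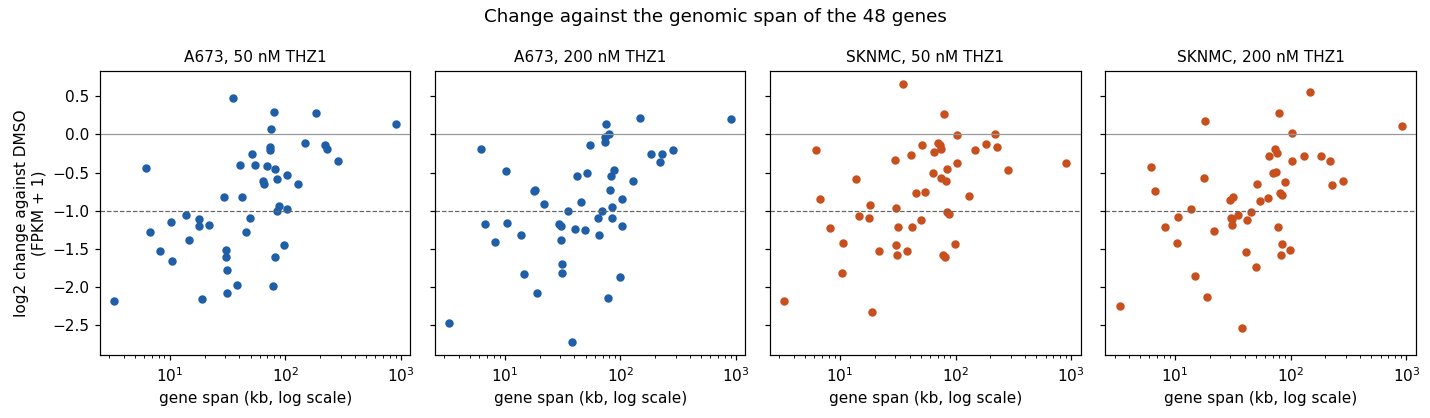
Log2 change against DMSO (y axis, FPKM + 1) and genomic span in kb (x axis, log scale) of the 48 genes, with a panel for each line and dose and a dashed line at a 2-fold decrease. Most genes under 21.7 kb lie near or below the dashed line, and most above 84.2 kb lie above it.

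In total 24 of the 48 genes overlap another listed gene, 5 of them on the same strand (RAD51D, RAD54B, ATRIP, CHEK1 and HUS1). Whether the counting used strand is not stated, so reads of such pairs could have been divided between them, and values of these genes are less certain.

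A further 49 genes of the same pathways, such as the RPA subunits, the CDC25 phosphatases and the RAP80 complex, showed a weaker loss at 50 nM. Of 46 active in each line, 14 (30.4%) and 12 (26.1%) decreased at 50 nM in A673 and SKNMC, and 19 (41.3%) and 20 (43.5%) at 200 nM, with no increased gene. ETAA1, another activator of ATR, had the lowest mean change, with 9.56, 0.995 and 0.275 FPKM in A673 and 9.21, 1.56 and 0.927 FPKM in SKNMC. TOP3A, the topoisomerase that works with BLM, was at 28.8, 5.07 and 5.08 FPKM in A673 and 17.7, 4.12 and 2.61 FPKM in SKNMC, and RFWD3, a ubiquitin ligase that acts on RPA, was at 36.5, 7.9 and 6.85 FPKM in A673 and 18.8, 3.87 and 3.33 FPKM in SKNMC. The highest mean changes belonged to 3 genes that passed 2-fold in neither direction. BRE was at 7.85, 9.97 and 11.3 FPKM in A673 and 14.3, 13.9 and 14.5 FPKM in SKNMC, BABAM1 at 62.1, 70.7 and 75.4 FPKM in A673 and 32.3, 36 and 38.9 FPKM in SKNMC, and C1orf86 at 50.4, 49.6 and 63.1 FPKM in A673 and 51.3, 55.6 and 76.6 FPKM in SKNMC. BRE and BABAM1 belong to the BRCA1-A complex and C1orf86 is a partner of the Fanconi core complex. Genes of excision, mismatch and end-joining repair decreased at shares nearer to those of all active genes. At 50 nM, 7 of 46 (15.2%) decreased in A673 and 9 of 45 (20%) in SKNMC. At 200 nM, 12 of 46 (26.1%) and 13 of 45 (28.9%) did so. Their median changes were -0.46 and -0.32 in A673 and -0.55 and -0.71 in SKNMC. All active genes had -0.27 and -0.40 in A673 and -0.32 and -0.55 in SKNMC. The medians of these repair genes were thus lower in all but A673 at 200 nM.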

How the data were processed

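RNA was sequenced from 6 libraries, 1 per condition, and samples were grouped by their labels. Per the paper's methods, the authors prepared TruSeq libraries, read 100-bp paired ends, mapped the reads with STAR on hg19 (Ensembl 75 annotation) and took FPKM from StringTie, whereas the submitters' processing notes name STAR and Cufflinks; no versions are given. The deposited FPKM values cover 20311 protein-coding and 7109 lincRNA genes. The title of the table speaks of averages although the labels give 1 library per condition. The 4 deposited columns of the authors' log2 fold changes were not used.

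Changes were computed in Python 3.11.15 (pandas 2.3.3, numpy 2.4.6, scipy 1.17.1) with a pseudocount of 1, active genes above 1 FPKM in DMSO and a 2-fold call, and were tested on simulated data. A fit in limma 3.58.1 (R 4.3.3) of log2(FPKM + 1) on line and treatment, with a mean trend in the variances and Benjamini-Hochberg adjustment, was added after the data were seen, with each library left out in turn and on 2 of the rescalings. Fragment counts, and so the absolute depth, are unknown; steps between low values put THZ1 libraries at about 88.9% to 96.6% of their DMSO library, which is approximate, so single values carry no counting interval. The genes and lists were chosen with earlier results of these data known, and 1 gene of the further pathway list is not reported here.

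All 6 values are given for genes decreased at either dose in both lines, the 6 lowest and 6 highest by mean change, and the most abundant of each of 9 roles. MDC1 was added after its values were seen. Alternatives were a pseudocount of 0.1, active above 5 FPKM, no filter, protein-coding genes alone, 3 rescalings and a 1.5-fold call. Promoters were matched by RefSeq symbol, and FANCI, HUS1, NBN and RAD54B had no match.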

Additional observations from a re-analysis of the deposited data

Results flagged for a closer look

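FANCD2 was the only one of the 48 genes whose change had opposite signs in A673 and SKNMC at both doses. In A673 its log2 change against DMSO was 0.066 at the lower and 0.14 at the higher dose, and SKNMC had -0.19 and -0.24. The difference was not tested, since each condition is 1 library, and all 4 changes lay well within 2-fold. With the 75th percentile as the scale all 4 were above 0, and with the ribosomal protein genes as the scale all 4 were below 0.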

How the results depend on the processing

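Of 121 recomputed values, 105 moved by less than the interval or limit set for them and 16 moved further. No median or difference of medians changed sign, and the other values are counts of genes, which cannot. Some values could hardly move by construction. Dropping the filter leaves the 48 genes as they were, and a rescaled library shifts both medians of a difference nearly alike. The tally is thus no measure of how firm the results are. The scaling mattered most, and no spiked-in RNA was there to choose a scale by. The 75th percentile moved the median of all active genes up by 0.22 and 0.32 in A673 and 0.25 and 0.48 in SKNMC (50 nM and 200 nM), and the ribosomal protein genes moved it by -0.19, -0.30, -0.31 and -0.45. With the 75th percentile, 11 genes decreased at 200 nM in A673 and 9 in SKNMC, where the median was -0.37 and 15 genes were lower at 200 nM than at 50 nM. With the ribosomal protein genes, the median was -1.20 in A673 at 200 nM, -1.10 in SKNMC at 50 nM and -1.26 in SKNMC at 200 nM, where 35 genes decreased. Under the 75th percentile 4 genes were decreased in every THZ1 library and 26 in none (4.71% and 75.5% of 10574 genes active in both lines), and under the ribosomal scale 19 and 8 (15.1% and 41.9%). Without the filter on low genes, the median of the 48 genes minus that of all genes was -0.82 in A673 and -0.58 in SKNMC at 200 nM. With a 1.5-fold call, 32 genes decreased in SKNMC at 200 nM, beside 48% of active genes, and 4 were higher in A673 than in SKNMC with DMSO, beside 17.6%. Within a line no library has a replicate. In the limma fit with the lines as replicates and line as the block, added after the data were seen, 30 genes were lower at 50 nM and 35 at 200 nM than with DMSO, and 5 were lower at 200 nM than at 50 nM. Leaving out each library in turn, with 1 residual degree of freedom, gave 23 to 32, 33 to 36 and 2 to 8. The last count was 8 without either DMSO library and 2 without SKNMC at 50 nM, and 10 on the ribosomal scale. With all 6 libraries, 38.5%, 52.7% and 23.2% of all genes fitted were lower in these comparisons. On the ribosomal scale the last share was 29%. These shares also moved with the library left out, so a moved count is not particular to the 48 genes. Each such fit leaves 1 library in a treatment group, so its count is no measure of how firm a call is. With unknown depth, values under 1 FPKM, reached by 7 of the 48 genes in at least 1 THZ1 library, carry an unknown counting error.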
